A study of Mus musculus with 19 samples.

Results

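The mouse PYHIN and Sp100 genes form a pair of groups on chromosome 1 whose proteins work largely in the nucleus and whose transcription rises with interferon. The set was named gene by gene (Ifi203, Ifi204, Ifi205, Mnda, Mndal, Aim2, Sp100, Sp110 and Sp140), and its members were found as the rows of the deposited count table that carry one of these 9 symbols first. Of the 24537 rows, 8 did so. No row is headed by Mnda, which is listed as an older name in the row of Ifi211. The 8 genes comprise 5 PYHIN genes and 3 Sp100 family genes, and 7 of the 8 had enough reads to enter the test over 12269 genes. Aim2 did not.

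Hepatocytes were isolated by 2-step liver perfusion from 19 wild-type C57BL/6J males, and poly(A) RNA was sequenced for each mouse separately. Of the mice, 10 were labelled 5mo and 9 were labelled 24mo. The labels give no transgene and no treatment for any mouse. Mice were culled on 2 days that were 23 days apart, 5 of each age on the first day and 5 young and 4 old mice on the second. Birth dates put the young mice at 140 or 163 days and the old mice at 719 or 742 days. Individual mice are called here by the numbers in the labels.

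PYHIN proteins pair a pyrin domain, which binds other pyrin domains, with a HIN domain, which binds DNA. Aim2 reads double-stranded DNA in the cytosol and assembles an inflammasome with Pycard and caspase-1, whereas most of the Ifi200 proteins sit in the nucleus and act on transcription, cell growth and the sensing of DNA. Sp100 family proteins are chromatin readers of nuclear bodies, the dots that form around PML. Both families are best known from macrophages and other leukocytes, and interferon raises their transcripts in many cell types.

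All 7 tested genes were higher in hepatocyte preparations of 24mo mice than in those of 5mo mice, by 1.76-fold (Sp140) to 3.51-fold (Ifi205). Of all genes tested, 16.3% were called higher, 14.5% lower and 30.9% in either direction. For 6 of the 7 the log2 fold change was at least 1, and 6.88% of all genes tested were called higher by as much. Without mouse 1187, which stands apart as described below, 1 of the 7 (Sp110) reached that size, and 3.27% of all genes were called higher by as much. In 0 of the 8 genes did every old mouse lie above every young one, against 0.994% of all genes tested. The median log2 fold change of the 7 genes was 1.18, against -0.0034 over all genes tested. These are low transcripts: mean levels at 5 months lay between 0.296 CPM (counts per 1e6 counts, scaled by TMM) for Aim2 and 3.21 CPM for Sp140. In bulk RNA, more cells of a type and more RNA per cell cannot be told apart. The transcripts of macrophages, other leukocytes, sinusoidal endothelium and stellate cells were also more abundant in the 24mo libraries, and their values are given beside the members below.

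Library totals ran from 17381439 to 19583059 counts at 5 months and from 18156240 to 20287628 counts at 24 months. The 10 hepatocyte markers summed to 111537 to 164984 CPM in the young mice and to 130174 CPM (mouse 1187) to 212330 CPM in the old. Alb had a mean of 94657 CPM in the young mice and 128990 CPM in the old. Alb makes up most of that sum. Of the 10 markers 2 were called higher, Alb (log2 fold change 0.47) and Apoa1 (0.41). The 2 called lower were Tat (-1.10) and Hnf4a (-0.30), and the median of the 10 was -0.027. The 16 macrophage markers summed to 158 to 747 CPM in the young mice and to 93.5 CPM (mouse 1183) to 3807 CPM (mouse 1187) in the old, and the next highest old mouse had 934 CPM. Mouse 1187 therefore stands apart from the other 24mo mice in macrophage RNA, and the age difference of each member is given with and without it.

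The promoters of the PYHIN genes are shown because the 8 tested genes of the group (4 members and 4 relatives) were all called higher and several promoters carry the same short stretch. The interferon-stimulated response element was searched, on both strands, as GAAA, any 2 bases and GAAA again, from 250 bases before to 50 bases after each RefSeq start (GRCm38.p6). It occurs in 1131 of 32851 promoters (3.44%), in 4 of the 11 promoters of members and in 6 of the 12 promoters of their other relatives. Mndal, Ifi203 and Ifi205 carry it, while Aim2, Sp100, Sp110 and Sp140 have no match in these windows, and the table holds no promoter named Ifi204. Of the 4 tested relatives, Ifi207, Ifi208 and Ifi211 carry it, and no match was found for Ifi209, which was also called higher. Of the 12 PYHIN genes with a promoter, 9 hold a match. The 9 matches on the strand of the gene, with 12 bases on each side, are written 5′ to 3′ with the match in capitals. Ifi213 and Ifi214 were below the filter and Ifi206 heads no row, so no age test stands behind those 3. A second promoter of Mndal and the promoter of Ifi205, 24 bases after its start, also hold a match on the opposite strand, which is not printed.
Mndal: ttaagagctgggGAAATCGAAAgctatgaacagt
Ifi203: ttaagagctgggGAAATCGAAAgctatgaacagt
Ifi205: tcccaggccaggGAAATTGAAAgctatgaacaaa
Ifi211: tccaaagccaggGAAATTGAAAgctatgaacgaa
Ifi207: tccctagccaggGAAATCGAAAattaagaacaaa
Ifi208: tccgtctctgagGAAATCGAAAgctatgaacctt
Ifi213: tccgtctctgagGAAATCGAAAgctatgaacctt
Ifi206: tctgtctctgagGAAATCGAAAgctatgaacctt
Ifi214: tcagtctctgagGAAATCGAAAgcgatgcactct

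These letters were compared after the matches had been seen. The exact form GAAATCGAAA occurs in 16 of the 32851 promoters (0.0487%), and 7 of those belong to PYHIN genes. The form GAAATTGAAA, carried by Ifi205 and Ifi211, occurs in 38 promoters (0.116%). The match begins 36 bases before the start of Mndal, 35 bases before that of Ifi203 and 134 bases before that of Ifi205. Another element, the gamma-activated site (TTCNNNGAA, a palindrome searched in the same way), occurs in 8.30% of all promoters and in 0 of the 11 promoters of members.

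The promoters of Mndal (chr1:173880138-173880437, minus strand) and Ifi203 (chr1:173942443-173942742, minus strand) are identical at 282 of 300 positions (94.0%). Each is printed whole, with the response element in capitals, because their likeness shows how close copies within the PYHIN group can be.
Mndal promoter: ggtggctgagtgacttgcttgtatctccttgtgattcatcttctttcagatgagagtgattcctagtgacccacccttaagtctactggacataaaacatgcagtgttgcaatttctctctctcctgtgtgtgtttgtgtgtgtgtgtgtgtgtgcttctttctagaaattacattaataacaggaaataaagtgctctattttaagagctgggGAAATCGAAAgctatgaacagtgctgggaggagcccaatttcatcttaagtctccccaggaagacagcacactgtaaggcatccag
Ifi203 promoter: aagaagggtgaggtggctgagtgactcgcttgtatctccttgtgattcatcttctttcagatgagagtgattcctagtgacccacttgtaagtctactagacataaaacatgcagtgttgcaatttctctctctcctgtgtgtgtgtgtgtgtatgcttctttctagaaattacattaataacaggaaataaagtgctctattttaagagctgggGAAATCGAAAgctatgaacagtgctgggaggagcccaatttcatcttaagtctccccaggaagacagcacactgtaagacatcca
The promoter of Ifi205 (chr1:174031706-174032005, minus strand) shares 170 aligned positions with that of Mndal and 174 with that of Ifi203. The second promoter window of Mndal shares 173 with the first, 180 with that of Ifi203 and 169 with that of Ifi205. The values for Ifi205 are therefore no higher than those of an offset window and show no particular likeness.

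Ifi203 encodes a nuclear PYHIN protein and lies at chr1:173920401-173942492 on the minus strand (mm10). Its levels in the 5mo mice were 2.18 CPM at the lowest, 2.85 at the median and 4.55 at the highest. In the 24mo mice the lowest was 2.70 CPM, the median 4.84 and the highest 24.4. All old mice but 1183 and 1185 lay above every young mouse, so 7 of 9 were clear of the young range. The mean was 3.01 ± 0.666 CPM (SD, n = 10) at 5 months and 6.97 ± 6.60 CPM (SD, n = 9) at 24 months. Ifi203 rose 2.25-fold (log2 fold change 1.17, SE 0.323, adjusted p = 0.0117 by edgeR's quasi-likelihood test). Without mouse 1187 the 24mo mean was 4.79 CPM and the log2 fold change was 0.66, still past the threshold (edgeR adjusted p = 0.0042). Without the young mice 1184, 1186 and 1188, which stood apart in earlier results, it was 1.13 with an edgeR adjusted p of 0.0511.

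Ifi204, the mouse gene most often set beside the human DNA sensor IFI16, lies at chr1:173747294-173766919 on the minus strand. The young mice ranged from 1.12 to 5.91 CPM with a median of 2.36, and the old from 1.30 to 30.4 CPM with a median of 4.92. The groups overlapped widely, with 2 of 9 old mice above every young mouse. The young mouse 1184 was the highest of its age, and the old mouse 1183 was below the young median. Ifi204 rose 2.67-fold (log2 fold change 1.42, SE 0.446, edgeR adjusted p = 0.0224). Without mouse 1187 the log2 fold change was 0.73 and was no longer past the threshold (edgeR adjusted p = 0.106).

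Ifi205, a PYHIN gene studied in macrophages and fat cells, lies at chr1:174011998-174031755 on the minus strand and had the largest fold change of the tested members and the fewest reads among them. The young mice held 2.5 to 21 counts, which is 0.109 to 1.15 CPM with a median of 0.599. The old mice ranged from 0.260 to 11.1 CPM with a median of 1.04. Mouse 1187 was 5.38 times the next old mouse, and 4 of 9 old mice exceeded every young one. The log2 fold change was 1.81 (SE 0.563, edgeR adjusted p = 0.0213). It fell to 0.88 without mouse 1187, with an edgeR adjusted p of 0.113, so the call for Ifi205 rests on that mouse, as does the call for Ifi204. Without that mouse 5 of the 7 genes were called higher, as were 12.4% of all genes.

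Mndal, named for its likeness to the myeloid nuclear differentiation antigen MNDA, lies at chr1:173857220-173880187 on the minus strand. Levels were 1.32 CPM at the lowest, 2.05 at the median and 4.09 at the highest in the young mice, and 2.18, 4.30 and 19.1 CPM in the old. The upper 5 old mice exceeded the whole young range, and the other 4 lay within it. Mndal rose 2.26-fold (log2 fold change 1.18, SE 0.364, edgeR adjusted p = 0.0209). Without mouse 1187 the log2 fold change was 0.63 (edgeR adjusted p = 0.0400). The GENCODE model of Mndal reaches from 173849126 to 173942491 on the same strand, across Ifi211 and into Ifi203. The counted rows of Mndal and Ifi203 do not overlap. How reads of the longer model were assigned among these 3 genes is not known.

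Aim2, the cytosolic DNA receptor of the inflammasome, lies at chr1:173420604-173466036 on the plus strand and was too low for the test over all genes. The young mice held 1 to 11.5 counts, at 0.0559 to 0.656 CPM with a median of 0.222. The old mice held 6 to 101.5 counts, at 0.312 to 4.45 CPM with a median of 0.618. Every old mouse had at least 6 counts, 4 of 9 exceeded every young mouse, and 1187 was 5.28 times the next. Mean levels were 0.296 ± 0.184 CPM at 5 months (SD, n = 10) and, at 24 months, 0.995 ± 1.31 CPM (SD, n = 9). The mean of the differences within the 2 cull days was 0.668 CPM, with p = 0.00740 by relabelling mice within days (exact two-sided permutation test, smallest possible p 3.15e-05). Without mouse 1187 the difference was 0.267 CPM (exact permutation p = 0.0183). The call was lost without the young mouse 1180 (0.638 CPM, exact permutation p = 0.0583) or 1182 (0.647 CPM, exact permutation p = 0.0542). The GENCODE model of Aim2 starts at 173350879 and overlaps Cadm3 on the opposite strand. The counted row of Aim2 starts at 173420604, past the end of Cadm3 at 173367695. Whether the counting used strand is not given in the sources used here.

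**Figure D1:**
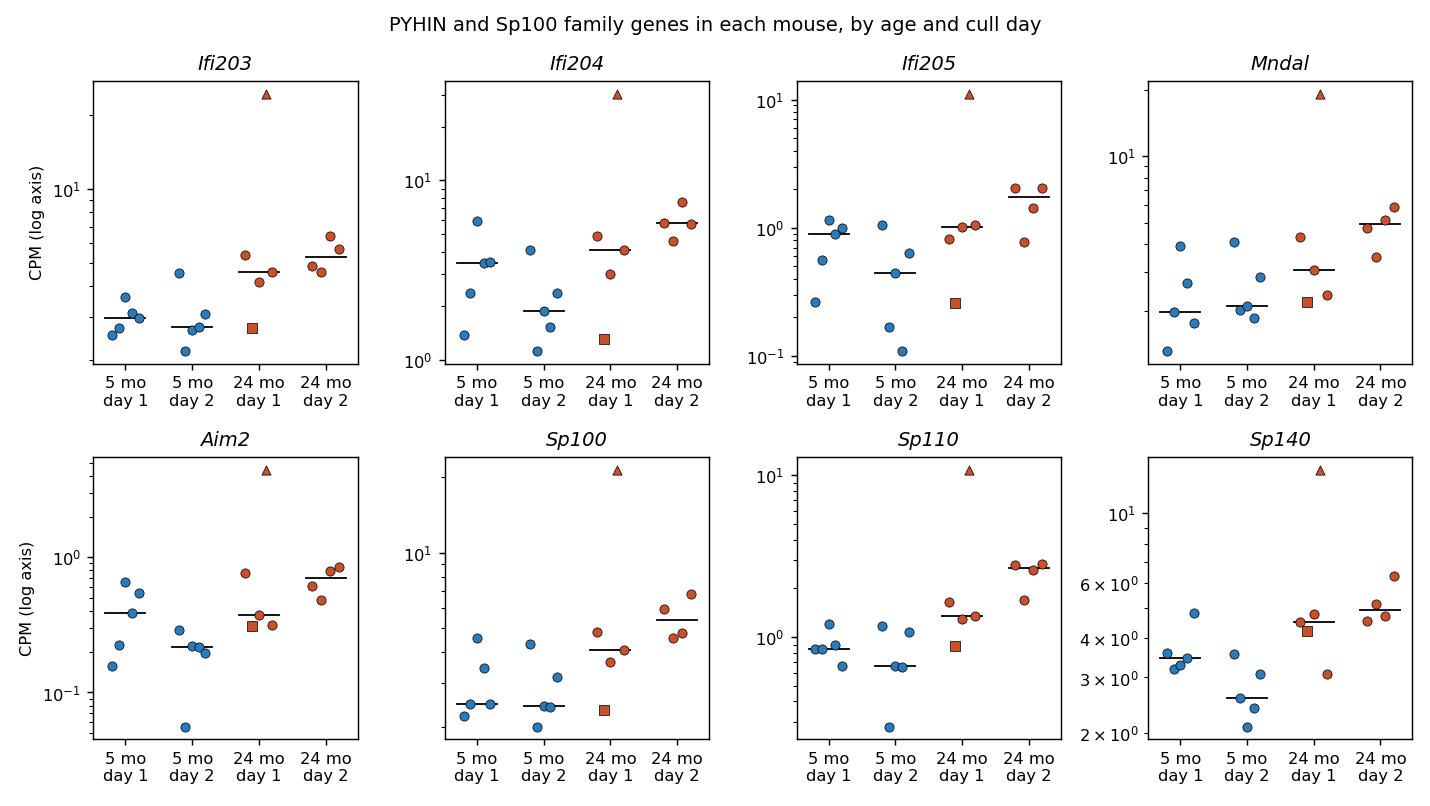
Level of each of the 8 genes in every mouse (CPM scaled by TMM, log axis), for the 10 mice of 5 months (blue) and the 9 mice of 24 months (orange) on each cull day. Lines are medians, the triangle is mouse 1187 and the square is mouse 1183. Mouse 1187 is the highest point in all 8 panels, while the other 24mo mice overlap the 5mo mice to a degree that differs between genes, from 1 old mouse within or below the young range for Sp110 to 7 for Ifi204.

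Sp110, a nuclear body protein whose mouse locus was mapped through the resistance of macrophages to mycobacteria, separated the ages more fully than any other member. The gene lies at chr1:85576899-85598810 on the minus strand. Young mice ranged from 0.280 CPM (mouse 1237) through a median of 0.842 to 1.20 CPM, and old mice from 0.883 through a median of 1.70 to 10.9 CPM. Of the old mice, 8 of 9 lay above every young mouse, and mouse 1183 was the exception. Sp110 rose 3.42-fold (log2 fold change 1.78, SE 0.408, edgeR adjusted p = 0.00411). It was still higher without mouse 1187, with a log2 fold change of 1.13 (edgeR adjusted p = 0.0031).

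Sp100, a component of the PML nuclear bodies first recognised with patients' autoantibodies, lies at chr1:85649988-85709997 on the plus strand. Its levels were 2.01 CPM at the lowest, 2.47 at the median and 4.54 at the highest in the young mice, and 2.34, 4.77 and 21.5 CPM in the old. Mice 1183, 1185 and 1189 were the old mice inside the young range, and 6 of 9 were above it. Sp100 rose 2.17-fold (log2 fold change 1.12, SE 0.328, edgeR adjusted p = 0.0157). Without mouse 1187 the log2 fold change was 0.62 (edgeR adjusted p = 0.0235).

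Sp140, a bromodomain reader found chiefly in leukocytes, lies at chr1:85600703-85645036 on the plus strand and had the smallest change of the 7. Young mice ranged from 2.09 to 4.83 CPM with a median of 3.24, and old mice from 3.08 to 13.8 CPM with a median of 4.73. Only 3 of 9 old mice were above every young mouse, and mouse 1189 was the lowest of the old. Sp140 rose 1.76-fold (log2 fold change 0.82, SE 0.220, edgeR adjusted p = 0.0103), and by 0.54 on the log2 scale without mouse 1187 (edgeR adjusted p = 0.0144). The rows of Sp100 and Sp140 overlap antisense gene models, and related copies of Sp110 and Sp100 lie nearby, so some reads could belong to either.

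The old mice were not ordered alike in every gene, but the ends of the order recurred. Mouse 1187 had the highest 24mo level in all 8 genes, from 2.18 times the next mouse for Sp140 to 5.38 times for Ifi205. Mouse 1183 had the lowest 24mo level in 7 of the 8, the exception being Sp140. Among the young mice, 1184 was highest for 5 genes (Ifi204, Ifi205, Aim2, Sp100 and Sp110). Across the 19 mice, ages pooled, the 21 pairs of tested members had Pearson correlations of log2 CPM from 0.789 to 0.967, with a median of 0.910. The same pairs ranged from 0.547 to 0.926, with a median of 0.820, without mouse 1187. These correlations share their libraries and are given as a description.

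Per kilobase of transcript, the levels can be set beside each other. At 5 months the order of mean CPM per kilobase was Sp140 (1.34 ± 0.319 SD), Mndal (1.29 ± 0.490), Ifi204 (1.21 ± 0.652) and Sp100 (1.07 ± 0.325), none of which differed from its neighbour beyond the spread. A lower tier held Ifi203 (0.619 ± 0.137 SD), Sp110 (0.436 ± 0.148) and Ifi205 (0.390 ± 0.237), and Aim2 was last at 0.117 ± 0.0730. At 24 months Ifi204 (3.28 ± 3.84 SD) and Mndal (2.95 ± 2.76) had the highest means, ahead of Sp140 (2.37 ± 1.32) and Sp100 (2.37 ± 2.10). The spread at 24 months was mostly that of mouse 1187, and without it the means of those 4 genes were 2.03, 2.05, 1.95 and 1.69 CPM per kilobase. Each length is that of a single transcript, so levels that rest on other isoforms would shift.

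The second cull day gave the cleaner separation. On that day the 4 old mice exceeded each of the 5 young mice for 6 of the 8 genes (Ifi203, Ifi204, Aim2, Sp100, Sp110 and Sp140), where 10.7% of all genes tested did so. For Ifi205 and Mndal, 3 of the 4 old mice did. The 7 tested genes were all called higher on the second day alone, with log2 fold changes from 0.83 (Ifi203) to 1.70 (Ifi205), where edgeR called 12.2% of genes higher. On the first day, which holds both 1187 and 1183, 0 of the 8 genes separated the ages fully, where 3.89% of all genes did, and edgeR called 0 of the 7, with 4 at an unadjusted p under 0.05 and 1.88% of all genes called higher. The first day's log2 fold changes ran from 0.72 (Sp140) to 1.87 (Ifi205), with adjusted p from 0.125 to 0.261. A test of the difference between days called 0 of the 7 genes and 0 of 12269 genes by edgeR, with unadjusted p of at least 0.325 for the members and 799 of all genes at an unadjusted p under 0.05. The age effect of Ifi203, for which the days differed most in p, was lower by a log2 difference of -0.65 (SE 0.641, adjusted p = 0.919) on the second day.

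Markers of other liver cells were higher in the same libraries. Of the 16 macrophage markers, 13 rose and 0 fell, with a median log2 fold change of 1.63, where 16.3% of all genes were called higher. Of the 8 tested pan-leukocyte genes 7 rose (median 1.79), and summed CPM over this list was 109 to 136 in the young mice and 88.4 to 566 in the old. Most of the young sum was Lcp1, the gene not called (log2 fold change -0.03, edgeR adjusted p = 0.876). Its mean was 97.0 CPM at 5 months and 94.9 CPM at 24 months, so the sum understates the rise of the other genes. Of the 12 endothelial markers 8 rose (median 0.74), at 166 to 296 CPM in the young and 174 to 591 CPM in the old. All 11 tested stellate markers rose (median 1.45), at 37.1 to 103 CPM in the young and 93.4 to 354 CPM in the old. Mouse 1187 set each of these upper limits, and without it the highest old mouse had 160 CPM of pan-leukocyte, 484 CPM of endothelial and 180 CPM of stellate markers. Without it, 2 of 16 macrophage, 4 of 8 pan-leukocyte, 7 of 12 endothelial and 8 of 11 stellate markers were called higher, as were 12.4% of all genes, so the macrophage count was close to the share among all genes. The medians without it were 0.79 for macrophage, 0.89 for pan-leukocyte, 0.59 for endothelial and 1.32 for stellate markers. No macrophage, endothelial or pan-leukocyte marker was at 0 in every library. Among the macrophage markers, Lyz2 (lysozyme, log2 fold change 2.48, SE 0.609, edgeR adjusted p = 0.00599), Marco (a scavenger receptor, 2.16, adjusted p = 0.0116) and Cd68 (1.74, adjusted p = 0.0139) had the smallest adjusted p. Without that mouse Lyz2 was at 1.34 (edgeR adjusted p = 0.0183) and Marco at 2.09 (adjusted p = 0.0197), and Cd68 was no longer called (0.90, adjusted p = 0.0522). The part of these cells in the rise of the members was not tested.

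The macrophage score of a mouse is its mean log2 CPM over the 16 markers. With this score beside age and cull day, the age effects were smaller for all 7 genes, at 0.42 for Ifi203, 0.23 for Ifi204, 0.25 for Ifi205 and 0.35 for Mndal on the log2 scale. For Sp100 the value was 0.33 and for Sp140 it was 0.44. Sp110 kept an age effect of 0.80 and was the only 1 of the 7 still called (edgeR adjusted p = 0.0389), while 3 had an unadjusted p under 0.05 and 11.1% of all genes were called higher. With an other-cell score (markers of B cells, T and NK cells, stellate cells, endothelium and macrophages together) the values were between -0.23 (Ifi205) and 0.44 (Sp110), and edgeR called 0 of the 7, with 0 at an unadjusted p under 0.05 and 7.43% of all genes called higher. The pan-leukocyte score gave -0.12 to 0.46 and the endothelial score -0.072 to 0.52, and edgeR called 0 of the 7 with either, with 1 and 0 at an unadjusted p under 0.05 and 6.76% and 5.84% of all genes called higher. A stellate score, added after seeing the data, turned all 7 values negative, from -0.072 (Sp140) to -1.42 (Ifi205). EdgeR called 0 of them, and 4 were lower at an unadjusted p under 0.05. In that fit 3.97% of all genes were called higher, and 1103 of 12269 were called in either direction. In a fit also chosen after seeing the data, with the macrophage score and without mouse 1187, 13.7% of all genes and 4 of the 7 were called higher: Ifi203 at 0.46, Sp100 at 0.35, Sp110 at 0.85 and Sp140 at 0.45. The scores themselves differed with age, so age and the score are partly the same measure in these fits.

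**Figure D2:**
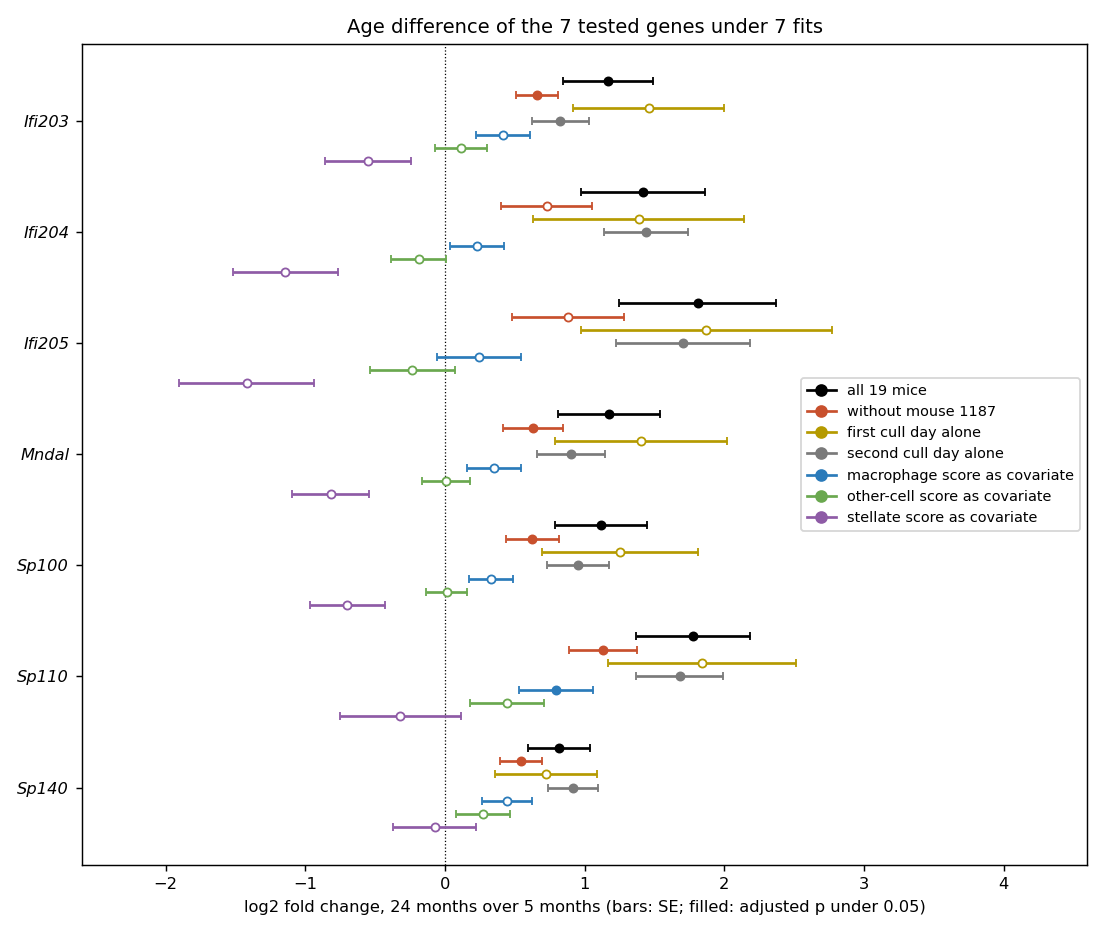
Age difference (log2 fold change, 24 months over 5 months, bars for SE) of the 7 tested genes under 7 fits, with filled points where the edgeR adjusted p is under 0.05. All 7 points are filled in the fit of all mice and on the second cull day, 5 of 7 without mouse 1187, 1 of 7 with the macrophage score as a term (Sp110) and 0 of 7 on the first cull day, with the other-cell score or with the stellate score, where all 7 points lie below 0.

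Across mice the members followed the macrophage score, and the genes differed in how closely. Over the 19 mice Pearson's r was highest for Ifi204 (0.935, rho 0.879) and Sp100 (0.910, rho 0.875), each with a permutation p of 1e-05 for r, the smallest that 100000 permutations can give, and 8.75e-05 after adjustment over 35 relations. It was lowest for Sp110 (r 0.802, rho 0.786, permutation p 0.00011 for r, 0.000481 adjusted) and Sp140 (r 0.722, rho 0.532, permutation p 0.00113 for r, 0.00247 adjusted). For rho the permutation p was 1e-05 for Ifi204, 2e-05 for Sp100, 0.00015 for Sp110 and 0.0209 for Sp140. The permutations took no account of age or cull day, so over both ages these p-values include the age difference. Leaving out mice 1187 and 1183, the farthest from the median score, r was 0.880 for Ifi204 and 0.651 for Sp140.

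Within the young mice alone, the relation held for Ifi204 (r 0.831, permutation p 0.00298, 0.00453 adjusted), and r was 0.716 to 0.768 for Ifi205, Mndal and Sp100. For Ifi203 the measures differed, with r 0.578 (permutation p 0.0778) and rho 0.782 (permutation p 0.0111, 0.0149 adjusted). Neither measure passed for Sp110 (r 0.375, permutation p 0.292, and rho 0.552, permutation p 0.104) or Sp140 (r 0.391, permutation p 0.268, and rho 0.382, permutation p 0.280). Within the 9 old mice r ran from 0.742 (Sp140, exact permutation p 0.0345, with rho 0.583 and exact permutation p 0.108) to 0.960 (Ifi204, exact permutation p 0.00182), and the ranks of Sp100 and of the score were the same (rho 1). Leaving out mice 1183 and 1187, r in the old mice was 0.676 for Ifi204 and 0.573 for Sp140, and it was highest for Sp100 (0.927). On the first cull day Sp140 had r 0.631 (permutation p 0.0762), which was 0.0307 without 1187 and 1183. On the second day its r was 0.965 (exact permutation p 0.000132). Both single-day values pool young and old mice. Sp110 and Sp140 were thus the members least tied to the macrophage score among young mice, although the difference in r between genes was not tested.

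**Figure D3:**
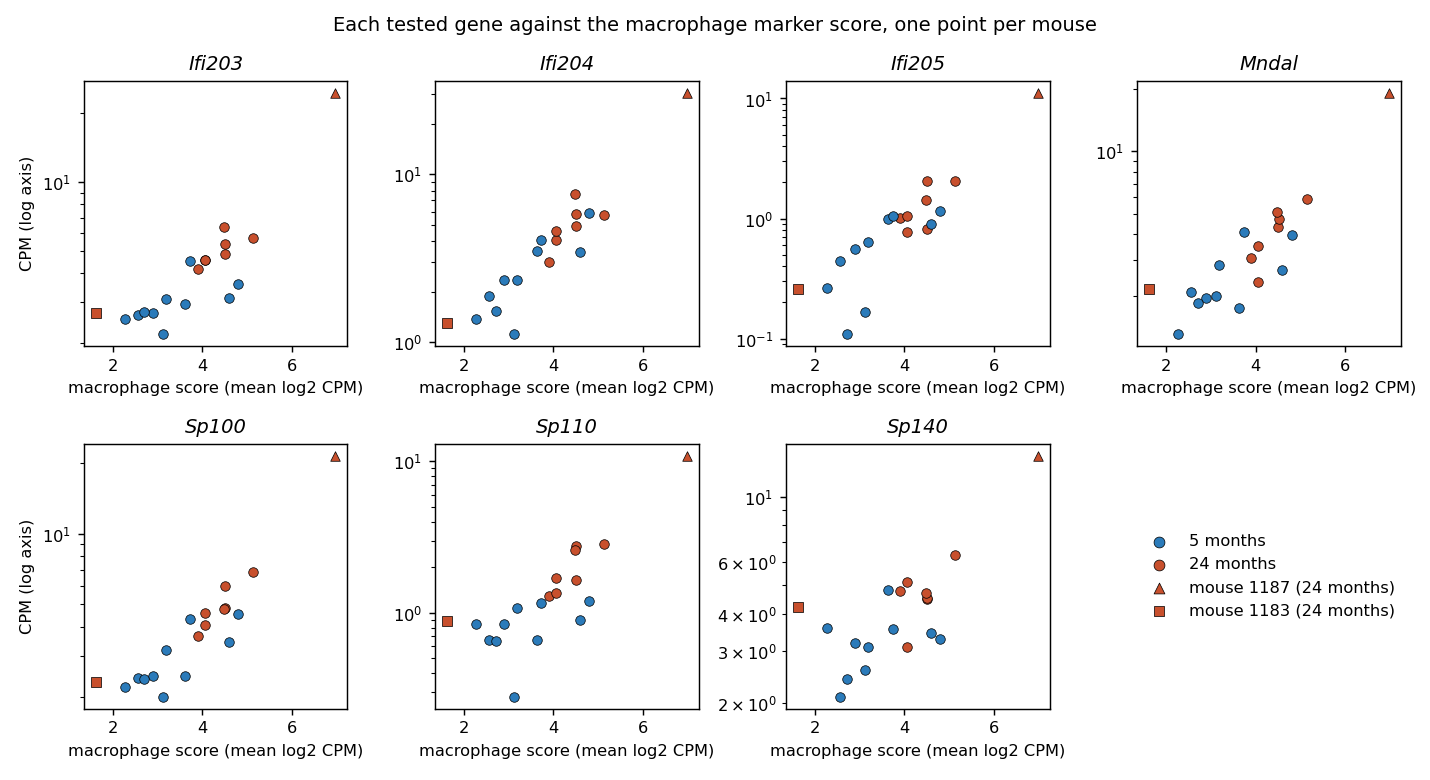
Level of each of the 7 tested genes (CPM, log axis) against the macrophage score (mean log2 CPM of 16 markers) in every mouse, blue at 5 months and orange at 24 months, with a triangle for mouse 1187 and a square for mouse 1183. Mouse 1187 is at the upper right in every panel, and Pearson's r of log2 CPM over the 19 mice ranges from 0.722 for Sp140 to 0.935 for Ifi204.

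Relatives of the members on the same chromosome were measured too. All 4 of the tested PYHIN relatives were called higher, with a median log2 fold change of 1.55. They were Ifi211 (2.05, SE 0.514, adjusted p = 0.00689), Ifi208 (1.27, adjusted p = 0.0219), Ifi209 (1.84, adjusted p = 0.0268) and Ifi207 (1.18, adjusted p = 0.0394), by edgeR. Without mouse 1187 the 24mo means of these 4 genes were 1.43, 0.950, 0.793 and 3.74 CPM in the same order, against 5mo means of 0.657, 0.574, 0.524 and 2.53 CPM. Ifi211 and Ifi208 were still called higher without that mouse, and Ifi209 and Ifi207 were not (edgeR adjusted p = 0.205 and 0.176). Ifi211 is the gene of the row that lists Mnda as an older name, and 6 of 9 old mice were above every young mouse. Ifi202b had 0 counts in every library, where 0 in a library taken alone allows an expected count of up to 3. Gm7609, an Sp100 relative in the same stretch, rose 1.88 on the log2 scale (SE 0.307, adjusted p = 0.000332 by edgeR), a smaller adjusted p than any member. Its levels were 0.421 to 1.28 CPM in the young mice and 1.15 to 6.63 CPM in the old, and 7 of 9 old mice were above the young range. Leaving out mouse 1187, the highest old level was 2.99 CPM and the log2 fold change of Gm7609 was 1.53 (edgeR adjusted p = 4.28e-05). A second relative, C130026I21Rik, was too low for the test and was picked out after its values were seen. It held 0 to 2 counts in each young mouse and 2 to 198 in each old mouse, and 8 of 9 old mice were above every young mouse. The 198 counts were those of mouse 1187, and without it the most was 30 counts and the 24mo mean was 0.840 CPM instead of 1.71.

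Genes that are no relatives but lie within 500000 bases of the groups had few tested rows, and those moved in both directions. Around the PYHIN group (173420604 to 174031755) 27 such rows are listed, 21 of them olfactory receptors and 21 rows with no reads. Cadm3, the 1 that was tested, rose (log2 fold change 1.17, edgeR adjusted p = 0.00426). Around the Sp100 group (85576899 to 85709997) 11 rows are listed and 4 were tested. Itm2c rose (0.59, edgeR adjusted p = 0.00368), Cab39 (-0.23, adjusted p = 0.0154) and Psmd1 (-0.28, adjusted p = 0.00287) fell, and 2810459M11Rik did not pass the test (-0.10).

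**Figure D4:**
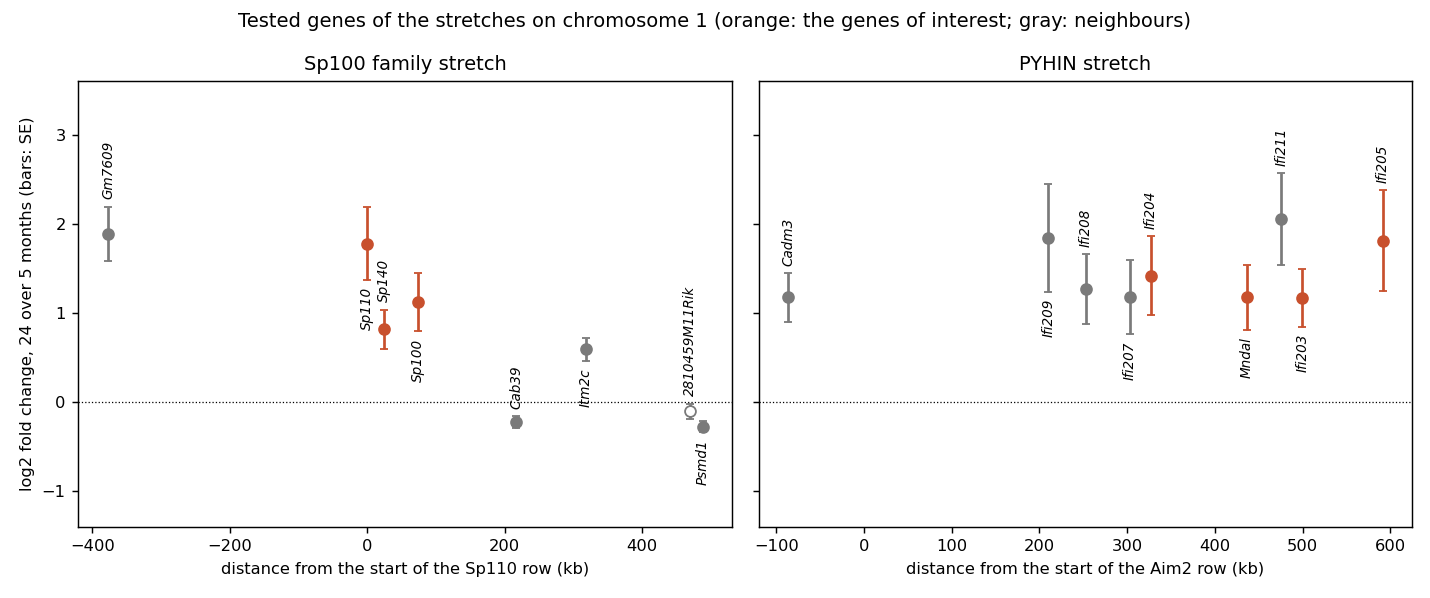
Age difference (log2 fold change, 24 months over 5 months, bars for SE) of the tested genes in the PYHIN and Sp100 stretches, against distance from the first member of each group in kilobases, with members in orange, other genes in gray and a hollow point for the gene that did not pass. The members and their relatives all lie above 0, and of the genes outside the families Cadm3 and Itm2c lie above 0 while Cab39, Psmd1 and 2810459M11Rik lie below.

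Genes that work with the members or upstream of them were tested as well, and 16.3% of all genes tested were called higher and 14.5% lower. Of 12 tested genes of the AIM2 inflammasome and DNA sensing, 5 rose and 0 fell, with a median log2 fold change of 0.56. They included Zbp1 (a sensor of left-handed nucleic acid, 1.49, adjusted p = 0.00589), Tmem173 (the adaptor STING, 1.83, adjusted p = 0.0126) and Il1b (a cytokine that caspase-1 matures, 1.57, adjusted p = 0.0152), by edgeR. Gsdmd, which forms the pores of pyroptosis, had a log2 fold change of 0.08 (edgeR adjusted p = 0.729). Of 15 genes of the PML nuclear body, 2 rose and 4 fell, with a median of -0.08, so the share called higher was no larger than among all genes. Morc3 rose (0.33, edgeR adjusted p = 0.00796), as did Pml, the scaffold of the bodies that Sp100 shares (0.38, adjusted p = 0.0277). The deubiquitinase Usp7 (-0.22, edgeR adjusted p = 0.00945) and the ubiquitin ligase Rnf4 (-0.18, adjusted p = 0.0128) fell. Of 16 tested genes from the interferon receptors to their transcription factors, 6 rose and 0 fell, with a median of 0.25. Irf7, a transcription factor of the interferon response, rose by a log2 fold change of 1.20 (edgeR adjusted p = 0.00227), the interferon-gamma receptor chain Ifngr1 by 0.67 (adjusted p = 0.00399) and Usp18, which restrains the response, by 0.99 (adjusted p = 0.00625). Mouse 1187 stood apart in 2 of these lists, with summed levels of 293 CPM for the inflammasome and DNA sensing genes and 993 CPM for the interferon genes against 181 and 599 CPM in the next old mouse. Without it, 4 of the 12, 1 of the 15 and 5 of the 16 genes were called higher, beside 12.4% of all genes, and Pml was not (log2 fold change 0.27, edgeR adjusted p = 0.0571). Irf7 was still higher without that mouse, at 0.84 (edgeR adjusted p = 7.94e-05), as was Zbp1 at 1.10 (adjusted p = 0.0116). Tmem173 was at 0.90 (edgeR adjusted p = 0.0295) and Il1b at 1.08 (adjusted p = 0.0455) without it.

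The genes most like each member across the 19 mice, after removal of age and cull day means, were as follows, by Pearson's r of log2 CPM as a description. For Ifi203 they were Oasl2 (0.962), Tbxas1 (0.960) and Slfn2 (0.959). For Ifi204 they were Ggta1 (0.975), Fcgr4 (0.973) and Nckap1l (0.970), and for Mndal they were Marcksl1 (0.978), Tmsb4x (0.974) and Dmpk (0.965). Slfn2 was also the nearest to Sp100 (0.978), with Cotl1 (0.978) and Csf2ra (0.969). For Sp110 they were Lmo2 (0.944), Srgn (0.936) and Vim (0.935). The values for Sp140 were lower, at 0.899 for Grap, 0.888 for Sh2b3 and 0.874 for Atp13a2. For Ifi205 they were 3 rows of the clustered protocadherins (Pcdhga12 at 0.958, Pcdhgc4 at 0.957 and Pcdhgc5 at 0.955), which overlap one another and share reads.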

How the data were processed

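Poly(A) RNA of hepatocytes from 19 mice was sequenced, and the authors deposited 1 table of estimated counts per gene. The submitters' processing notes name STAR, HOMER and mm10 (GRCm38), with versions not given in the sources used here. 29.2% of its values are not whole, and 6045 of 24537 genes have no read. Counts were rounded to whole numbers. Every pair of libraries of one age differed by more than counting error (chi-square over degrees of freedom of at least 15.4). All 19 libraries, grouped by the labelled age, entered the edgeR 4.0.16 quasi-likelihood test (R 4.3.3, TMM scaling, filterByExpr with a minimum count of 10), with age and cull day as terms and Benjamini-Hochberg adjustment over 12269 genes at 0.05. The SE is the absolute log2 fold change over the root of F. Log2 CPM used a prior count of 2. Levels are TMM-scaled CPM. The test was tested on simulated data. DESeq2 1.42.0 and limma 3.58.1 served as alternatives, with other scalings, filters, covariates, single cull days and leaving out each mouse. Correlations used 100000 permutations, or all of them where n was under 10, within each set of mice and regardless of age and cull day. RefSeq promoters and GENCODE M21 gene models are of the GRCm38 build. The genes named are the members, up to 3 genes of smallest adjusted p in each list, and the 3 most similar genes of each member, with the tested neighbours on chromosome 1. Hnf4a, Lcp1, Ifi207, Ifi202b, Pml, Gsdmd, 2810459M11Rik and C130026I21Rik were added after their values were seen. The members and lists were chosen with earlier results of these data known. The design assumed whole counts, and the file holds estimated counts. Each library is a separate mouse, per the labels.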

Additional observations from a re-analysis of the deposited data

Results flagged for a closer look

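Of 16 groups of mice (8 genes at 2 ages), 7 held a mouse whose gap to the nearest of the others, as a share of the group's range, exceeded Dixon's critical value of 0.493 for 9 mice or 0.466 for 10. Chance does so in about 1 group of 20. In 6 of the 7 the mouse was 1187, the highest of the 24mo mice. Its gap over range was 0.613 for Ifi203, 0.546 for Mndal, 0.656 for Aim2, 0.519 for Sp100, 0.545 for Sp110 and 0.519 for Sp140, each on the log2 CPM scale. The gaps of mouse 1187 for Ifi204 and Ifi205 did not exceed the critical value. The other was mouse 1237, the lowest of the 5mo mice for Sp110, at 0.562 of the range and 0.280 CPM. The 8 genes come from the same libraries, so these are not separate events. The macrophage markers of mouse 1187 summed to 3807 CPM, and their part in its levels of the 8 genes was not tested.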

How the results depend on the processing

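Counts of members called higher were 7 of 7 with all mice and 5 to 7 when each mouse was left out in turn. Over the same fits 12.4% to 16.9% of all genes were called higher, and the lower count and share are those without mouse 1187. The members' counts and the shares of all genes were 0 and 1.88% on the first cull day alone, 1 and 11.1% with the macrophage score, 0 and 7.43% with the other-cell score, 0 and 6.76% with the pan-leukocyte score and 0 and 5.84% with the endothelial score. With the stellate score, added after seeing the data, they were 0 and 3.97%. They were 4 and 11.0% without mice 1187 and 1181, 4 and 13.7% with the macrophage score and without 1187, and 6 and 14.6% without 5mo mice 1184, 1186 and 1188, where Ifi203 was lost (adjusted p = 0.0511). DESeq2 size factors, library totals, unrounded counts, no cull day term, voom sample weights and the second cull day alone gave 7 members. Over these fits 12.2% (second cull day alone) to 17.1% (library totals) of all genes were called higher. A filter of 1 CPM gave 6 of 6 tested, beside 15.2% of all genes. DESeq2 gave 6 (Sp110 has no adjusted p), beside 16.4%, and no filter gave 8 with Aim2, beside 13.3%.

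Log2 fold changes turned negative with the stellate score for all 7 (Ifi203 -0.55, Ifi204 -1.14, Ifi205 -1.42, Mndal -0.82, Sp100 -0.70, Sp110 -0.32, Sp140 -0.072; 4 of the 7 at an unadjusted p under 0.05). Ifi204 was -0.19 with the other-cell, -0.11 with the pan-leukocyte and -0.072 with the endothelial score, and Ifi205 was -0.23, -0.12 and -0.017. At an unadjusted p under 0.05, the pan-leukocyte fit had 1 gene, with a positive value (Sp110, 0.46), and the endothelial fit 0. The cause was not tested.

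Leaving out each mouse gave 0.66 to 1.27 for Ifi203, 0.73 to 1.58 for Ifi204, 0.88 to 2.01 for Ifi205, 0.63 to 1.29 for Mndal, 0.62 to 1.23 for Sp100, 1.13 to 1.89 for Sp110 and 0.54 to 0.91 for Sp140. The calls lost were Ifi204 and Ifi205 without 1187. No paired analysis was possible because the mouse numbers are not shared between ages. The difference in mean Aim2 level ranged from 0.267 to 0.784 CPM over the same omissions, with exact permutation p from 0.00265 to 0.0583, and its call was lost without 1180 or 1182. Depth limits Aim2, with 1 to 11.5 counts in young mice. Leaving out mouse 1187, an alternative added for the gene lists after seeing the data, changed the count called higher from 13 to 2 macrophage, from 7 to 4 pan-leukocyte, from 4 to 2 other PYHIN, from 2 to 1 PML nuclear body and from 1 to 0 neutrophil genes.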

Other observations

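Markers of rarer leukocytes were at low levels, with most of them under the filter. Among dendritic cell genes 2 were tested and 1 rose (Clec9a, log2 fold change 1.08, edgeR adjusted p = 0.0208). The 1 neutrophil gene tested rose (Csf3r, 2.10, edgeR adjusted p = 0.00937), as did the 1 B lineage gene (Jchain, 2.14, edgeR adjusted p = 0.00583). Cd4, the 1 tested gene of the T and NK cell list, had a value of 0.10 (edgeR adjusted p = 0.900). Mouse 1187 stood apart in each of these lists, with summed levels of 18.8 CPM for dendritic cell, 18.1 CPM for neutrophil, 31.8 CPM for T and NK cell and 18.6 CPM for B cell genes, against at most 6.22, 6.12, 2.95 and 4.69 CPM in the other old mice. Without that mouse Csf3r was not called (1.29, edgeR adjusted p = 0.0505), Clec9a (0.72, adjusted p = 0.0466) and Jchain (1.68, adjusted p = 0.00771) were, and Cd4 was at -0.79 (adjusted p = 0.0784).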
